A study of Mus musculus with 8 samples.

Results

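Adult neurogenesis genes were examined in the hippocampal RNA of female mice. They were the 9 genes Mki67, Top2a, Eomes, Sox4, Sox11, Igfbpl1, Dcx, Neurod1 and Calb2, chosen by symbol from the 29442 genes of the count table, and all 9 were detected in every library. The tissue was the ventral hippocampus of C57BL/6 J mice aged 6 to 8 weeks, injected under the skin of the abdomen every day for 21 days. The DHEA group received dehydroepiandrosterone, an androgen precursor, at 30 mg/kg/day (4 libraries: R3, R4, R7 and R11), and the control group received sesame oil, the vehicle (4 libraries: R5, R9, R10 and R16). The comparison asks how DHEA changed hippocampal transcripts. Groups are named here by their deposited labels, because the fold changes in the study's own list of differentially expressed genes run in the opposite direction under these labels. If the labels were exchanged, every direction given here would be reversed. The methods give 4 mice per group for sequencing, dissected once the behavioural tests were over, so each library was taken as 1 mouse.

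New granule neurons are made throughout life in the subgranular zone of the dentate gyrus. Radial glia-like stem cells give rise to dividing intermediate progenitors, which become neuroblasts and then immature granule neurons that join the granule cell layer. The 9 genes follow this order. Mki67 and Top2a mark dividing cells, Eomes marks intermediate progenitors, Sox4, Sox11, Igfbpl1 and Dcx mark neuroblasts, and Neurod1 and Calb2 mark late progenitors and immature granule neurons. Several are also expressed elsewhere in the hippocampus, Neurod1 in mature granule neurons and Calb2 (calretinin) in interneurons and mossy cells. In bulk RNA, fewer cells of a type and less RNA per cell cannot be told apart.

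Total gene counts ran from 35748416 to 38038361 per library in the DHEA group and from 31483772 to 35418297 in the sesame oil group. Every library labelled DHEA was deeper. Transcripts of the mitochondrial genome took 7.29% to 9.34% of counts in the DHEA group and 6.37% to 7.23% in the sesame oil group. With every library thinned to the smallest total, the log2 fold changes of the 9 genes lay between 0.02 (Neurod1) and 0.55 (Eomes). The part of the mitochondrial share in the results was not tested. Hippocampal neurons were well represented. Prox1, the transcription factor of granule neurons, had a median of 15.3 FPKM (a level scaled for transcript length and library total), and Neurod6, a factor of pyramidal neurons, 106 FPKM.

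None of the 9 genes differed between the groups beyond the spread of the libraries. edgeR's quasi-likelihood test gave an unadjusted p under 0.05 for 0 of 9 genes, against 9.31% of the 27612 genes tested. The lowest p was 0.127, for Sox4. After Benjamini-Hochberg adjustment 0 of 9 passed (adjusted p from 0.643 to 0.892), as did 0% of all genes, and DESeq2 called 0.554% of all genes but gave no p under 0.05 for any of the 9. An unadjusted p under 0.05 with at least a 2-fold difference was met by 0 of 9 genes and by 1.60% of all genes. The groups overlapped in all 9 genes, while 5.04% of all genes did not overlap. All 9 log2 fold changes lay above 0 (51.2% of all genes), with a median of 0.13 against 0.008 over all genes. The 9 values come from the same 8 libraries and are not independent of each other.

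Mki67 and Top2a encode the proliferation antigen Ki-67 and the topoisomerase that untangles chromosomes before division. Their upstream sequences are shown because genes of the G2 and M phases often carry CCAAT boxes and the TTTGAA element of the cell cycle genes homology region. The 250 bases before the start site are written 5′ to 3′ on the gene's strand, from RefSeq (GRCm38.p6, whereas the submitters' processing notes name GRCm39 for the counts), at chr7:135716380-135716629 (- strand) for Mki67 and at chr11:99024190-99024439 (- strand) for Top2a. Capitals mark CCAAT or its reverse complement ATTGG, and TTTGAA or its reverse complement TTCAAA.
Mki67: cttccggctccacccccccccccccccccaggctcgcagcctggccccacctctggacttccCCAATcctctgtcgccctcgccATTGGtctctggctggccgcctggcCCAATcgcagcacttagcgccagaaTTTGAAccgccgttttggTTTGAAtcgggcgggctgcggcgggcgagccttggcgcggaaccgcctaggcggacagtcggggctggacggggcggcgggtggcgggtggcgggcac
Top2a: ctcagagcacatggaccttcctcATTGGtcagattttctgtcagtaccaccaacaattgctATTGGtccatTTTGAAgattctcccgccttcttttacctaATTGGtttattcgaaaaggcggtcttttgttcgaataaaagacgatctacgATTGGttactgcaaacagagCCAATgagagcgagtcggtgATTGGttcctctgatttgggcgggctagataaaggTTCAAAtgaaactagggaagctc
The Mki67 stretch holds 3 matches to CCAAT and 2 to TTTGAA, and the Top2a stretch holds 6 and 2. Of all 32851 promoters of this length in the table, 33.8% held CCAAT, 16% TTTGAA and 5.55% both. Of the 9 genes, 7 matched the table with 8 promoters (all except Igfbpl1 and Calb2), and 3 of these promoters held both motifs. A match describes the letters only.

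Transcripts of dividing cells were scarce. Mki67 measured 2.80, 1.94, 2.55 and 1.97 CPM (TMM-normalized counts per 1000000) in R3, R4, R7 and R11, and 1.66, 2.27, 1.02 and 2.46 CPM in R5, R10, R16 and R9. The lowest library was the oil-labelled R16, and the oil-labelled R9 and R10 lay within the DHEA range. The means were 2.31 ± 0.430 and 1.85 ± 0.654 CPM (SD, n = 4), with a log2 fold change of 0.32 (SE 0.27, edgeR adjusted p = 0.666, exact permutation p = 0.314). The 95% interval of the difference ran from 0.837-fold to 1.86-fold. Top2a measured 1.99, 2.89, 2.14 and 1.45 CPM in R3, R4, R7 and R11, and 1.69, 2.44, 1.75 and 1.84 CPM in R5, R10, R16 and R9. Both the highest and the lowest library carried the DHEA label. The log2 fold change was 0.13 (SE 0.25, edgeR adjusted p = 0.870, exact permutation p = 0.657). With 32 to 104 counts of Mki67 and 53 to 103 of Top2a per library, counting error alone gives a coefficient of variation of 11.7% and 11.9%, against 27.3% and 22.8% measured.

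Eomes, the T-box factor of intermediate progenitors, varied most of the 9. It measured 1.40, 1.82, 3.52 and 2.96 CPM in R3, R4, R7 and R11, and 0.211, 1.99, 0.381 and 3.88 CPM in R5, R10, R16 and R9. The sesame oil group held both the highest library (R9) and the 2 lowest (R5 and R16). R5 had 7 counts (95% Poisson interval 2.81 to 14.4), R16 had 12 (6.20 to 21) and R3 had 52 (38.8 to 68.2), intervals that cover counting error only. The highest CPM was 18.4 times the lowest, and the coefficient of variation was 67.4%, against 11.8% from counting. Only 0.643% of the 2334 genes with a mean count within 2-fold of that of Eomes had as large an SD of log2 CPM. The means of 2.43 ± 0.983 and 1.62 ± 1.71 CPM (SD, n = 4) gave a log2 fold change of 0.58 (SE 0.56, edgeR adjusted p = 0.674, exact permutation p = 0.343), with a 95% interval from 0.664-fold to 3.36-fold.

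**Figure D1:**
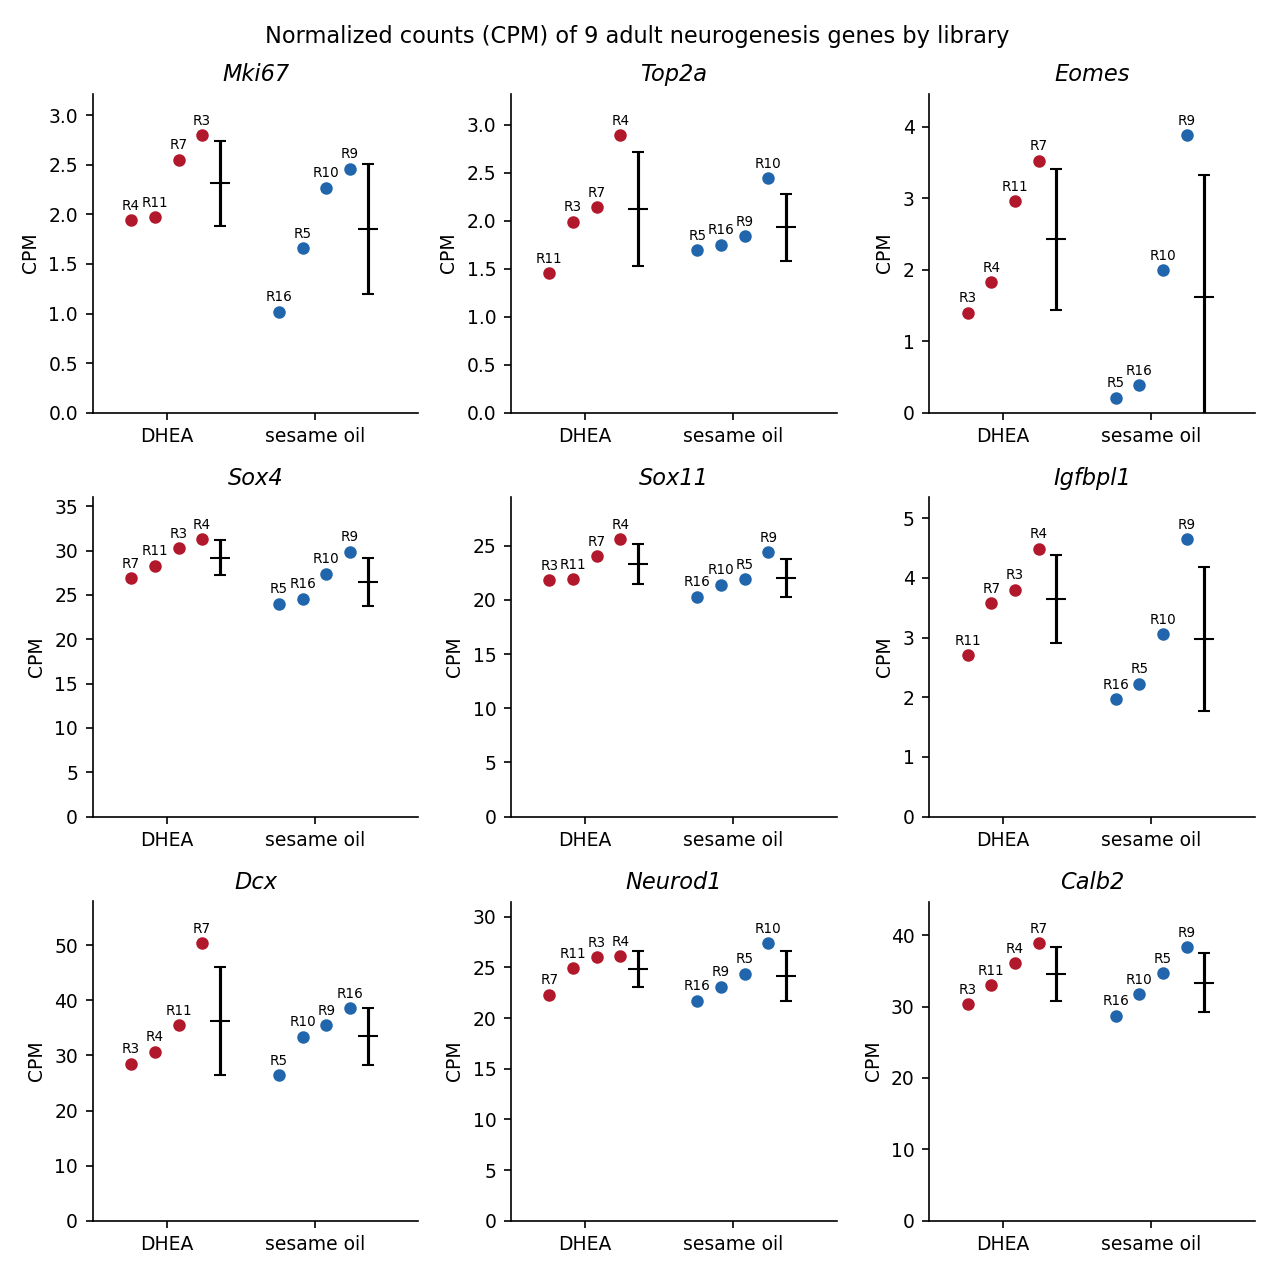
CPM (TMM-normalized) of the 9 genes in each library, one panel a gene, with the y axis of each panel starting at 0. Points are libraries, the horizontal line is the group mean and the bar 1 SD (n = 4, cut off at 0 for Eomes). The groups overlap in every panel, and Eomes runs from 0.211 to 3.88 CPM within the sesame oil group.

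The neuroblast genes differed in how closely the libraries agreed. Sox4, a SoxC transcription factor of newborn neurons, measured 30.3, 31.3, 26.9 and 28.3 CPM in R3, R4, R7 and R11, and 24.0, 27.4, 24.6 and 29.9 CPM in R5, R10, R16 and R9. Its lowest 2 libraries were R5 and R16, and R9 and R10 lay within the DHEA range. The means of 29.2 ± 1.97 and 26.5 ± 2.70 CPM (SD, n = 4) gave a log2 fold change of 0.14 (SE 0.09, edgeR adjusted p = 0.643, exact permutation p = 0.171). The 95% interval, from 0.970-fold to 1.25-fold, leaves out changes of 2-fold in either direction. Sox11, the related SoxC factor, measured 21.8, 25.6, 24.0 and 21.9 CPM in R3, R4, R7 and R11, and 21.9, 21.4, 20.3 and 24.4 CPM in R5, R10, R16 and R9. Its log2 fold change was 0.09 (SE 0.09, edgeR adjusted p = 0.706, exact permutation p = 0.286), and the highest library exceeded the lowest by a ratio of only 1.26. Igfbpl1, an insulin-like growth factor binding protein-like gene that marks neuroblasts, measured 3.80, 4.49, 3.58 and 2.71 CPM in R3, R4, R7 and R11, and 2.23, 3.06, 1.97 and 4.65 CPM in R5, R10, R16 and R9. R9 was the highest library and R16 the lowest, both labelled sesame oil. The log2 fold change was 0.29 (SE 0.25, edgeR adjusted p = 0.666, exact permutation p = 0.343).

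Dcx encodes doublecortin, the microtubule-associated protein by which migrating neuroblasts are usually counted. It measured 28.5, 30.7, 50.4 and 35.5 CPM in R3, R4, R7 and R11, and 26.4, 33.4, 38.6 and 35.5 CPM in R5, R10, R16 and R9. R7 stood above the other DHEA libraries, which lay within the range of the sesame oil group. The means were 36.3 ± 9.82 and 33.5 ± 5.20 CPM (SD, n = 4), and the log2 fold change was 0.12 (SE 0.14, edgeR adjusted p = 0.764, exact permutation p = 0.771). Without R7 it was -0.08. Its coefficient of variation was 21.3%, against 2.87% from counting 874 to 1815 reads per library, and 5.07% of the 4952 genes of similar count had as large an SD.

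The genes of late progenitors and immature granule neurons had the smallest differences between the groups. Neurod1, a basic helix-loop-helix factor needed for the survival of newborn granule neurons, measured 26.0, 26.1, 22.3 and 24.9 CPM in R3, R4, R7 and R11, and 24.4, 27.4, 21.7 and 23.1 CPM in R5, R10, R16 and R9. Its log2 fold change was 0.04 (SE 0.09, edgeR adjusted p = 0.892, exact permutation p = 0.686), with a 95% interval from 0.900-fold to 1.17-fold. Calb2 measured 30.3, 36.1, 38.9 and 33.0 CPM in R3, R4, R7 and R11, and 34.7, 31.7, 28.7 and 38.3 CPM in R5, R10, R16 and R9. The highest library was R7 and the lowest R16. The log2 fold change was 0.05 (SE 0.10, edgeR adjusted p = 0.866, exact permutation p = 0.657), with an interval from 0.900-fold to 1.19-fold.

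**Figure D2:**
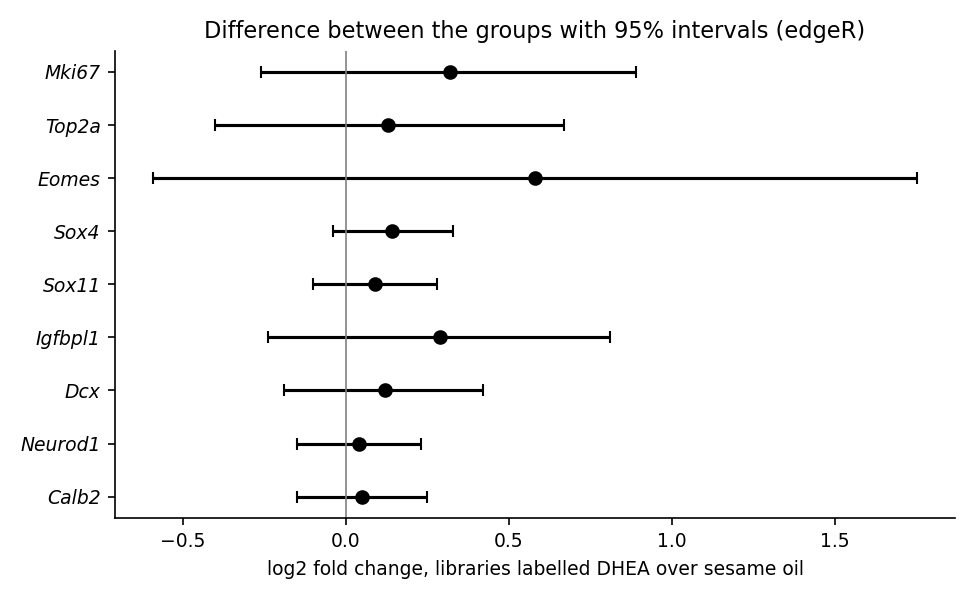
Log2 fold change of each gene, libraries labelled DHEA over sesame oil (x axis), with 95% intervals from edgeR as bars. All 9 intervals include 0, and that of Eomes is the widest, from -0.59 to 1.75.

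Single libraries moved several of these differences in either direction. Without R5 the log2 fold change of Eomes was 0.21, and without R16 it was 0.25. Leaving out R16 gave 0.11 for Mki67 and 0.13 for Igfbpl1. Leaving out R9, also labelled sesame oil, gave log2 fold changes of 1.47 for Eomes (SE 0.54, edgeR adjusted p = 0.457), 0.59 for Igfbpl1 (SE 0.24, edgeR adjusted p = 0.527) and 0.20 for Sox4 (SE 0.09, edgeR adjusted p = 0.584). That is 33.3% of the 9 genes higher at an unadjusted p under 0.05, against 4.46% of the 27276 genes tested without R9 (8.25% in either direction). None of the 3 passed after adjustment. R9 was the highest sesame oil library for all 3 genes, so leaving it out had to raise their differences. The share without R9 therefore cannot show whether the 9 genes differ between the groups.

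Per length, Calb2 and Neurod1 were the most abundant of the 9 genes, and Eomes, Top2a and Mki67 the least. Both Calb2 and Neurod1 are also expressed in mature cells, so their levels are not those of new neurons alone. The median FPKM over the 8 libraries was 23.5 for Calb2, 9.95 for Neurod1, 5.87 for Sox4, 3.72 for Dcx, 2.62 for Sox11, 1.23 for Igfbpl1, 0.507 for Eomes, 0.364 for Top2a and 0.208 for Mki67. Calb2, with 19.8 to 27.1 FPKM, did not overlap Neurod1, with 8.70 to 11.1 FPKM. Neighbours whose ranges overlapped were Sox4 and Dcx, Dcx and Sox11, Igfbpl1 and Eomes, and Eomes and Top2a. Eomes exceeded Top2a in only 4 of 8 libraries, and the other neighbours kept their order in 8 of 8.

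Libraries ranked alike across several of the 9 genes. R16 was the lowest library for 5 genes and R5 for 3, and each of these oil-labelled libraries lay among the lower 4 for 8 of 9 genes. R4 was the highest for 3 genes, and R7 and R9 for 2 each. Of the 36 pairs of genes, 32 had a positive Pearson r in log2(CPM + 0.5) over the 8 libraries (median 0.460). By exact permutation, 6 pairs had a p under 0.05 and 0 had a Benjamini-Hochberg adjusted p under 0.05 over the 36 pairs (lowest 0.163). Sox4 and Igfbpl1 gave r = 0.888 (exact permutation p = 0.00499, adjusted p = 0.163) and Spearman's rho = 0.810 (exact permutation p = 0.0218, adjusted p = 0.392), with r = 0.690 without R5 and R16 and 0.873 after the group means were removed. Sox11 and Calb2 gave r = 0.850 (exact permutation p = 0.00957, adjusted p = 0.163) and rho = 0.857 (exact permutation p = 0.0107, adjusted p = 0.386), with r = 0.922 without R4 and R9. The relation of Eomes and Igfbpl1, r = 0.727 (exact permutation p = 0.0439, adjusted p = 0.277) and rho = 0.595 (exact permutation p = 0.132, adjusted p = 0.473), rested on R5 and R16, without which r was 0.0219. The dividing-cell genes Mki67 and Top2a gave r = 0.274 (exact permutation p = 0.508, adjusted p = 0.707) and rho = 0.333 (exact permutation p = 0.428, adjusted p = 0.811), with r = 0.200 without R3 and R16. All pairs share the libraries' depth and normalization. The share of positive r over other pairs of genes was not measured, nor how often R5 and R16 rank low over all genes. R5 and R16 were also the smallest libraries by total (32757366 and 31483772 counts).

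**Figure D3:**
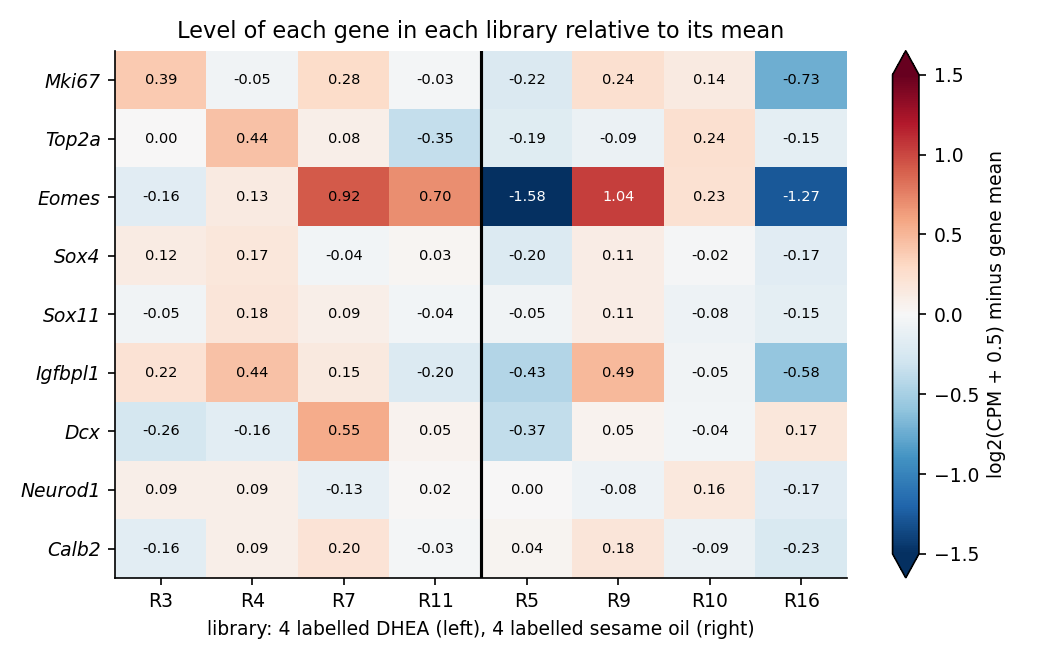
Log2 CPM of the 9 genes (rows) in the 8 libraries (columns), each relative to the gene's mean over the libraries. The colour scale ends at 1.5 in both directions. R5 and R16 are among the lower 4 libraries in 8 of 9 genes, with Eomes lowest in R5. Their ranks over all genes were not measured.

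Dcx varied apart from the other neuroblast genes. The genes most like it, by Pearson r in log2(CPM + 0.5) over the 8 libraries among 12779 genes averaging 100 counts or more, were Zfp286 (r = 0.977), Ccdc14 (0.974), Dazap1 (0.969), B230208B08Rik (0.943) and Fam135a (0.936). Igfbpl1 stood at place 5399, with r = 0.0428, Sox11 at place 4474, with r = 0.137, and Sox4 at place 6826, with r = -0.106. For Eomes, taken up after its values were seen, the most like were Rasal2 (r = 0.964), Fgfbp3 (0.959), Snx22 (0.949), Selenbp1 (0.942) and Sp1 (0.942). These values are the largest of 12779 for Dcx and 12780 for Eomes in only 8 libraries and are given as a description.

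Further genes of the lineage were taken from lists of markers and counted by edgeR's unadjusted p under 0.05, which 4.82% of all genes met as higher in DHEA and 4.49% as lower. No gene of the lineage lists had an adjusted p under 0.05. Of 16 stem cell genes, 5 were higher and 0 lower (31.2% higher, median log2 fold change 0.11). They included Prom1 (log2 fold change 0.33, SE 0.11, adjusted p = 0.322), Lpar1 (0.32, SE 0.10, adjusted p = 0.336), Sox9 (0.20, SE 0.07, adjusted p = 0.403) and Hopx (0.21, SE 0.08, adjusted p = 0.426). Sox9 and Hopx are also astrocyte genes, and Lpar1 is also an oligodendrocyte gene. The stem cell genes Nes and Sox2, named after their values were seen, had log2 fold changes of -0.02 (adjusted p = 0.982) and 0.03 (adjusted p = 0.897) in edgeR.

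Of 16 DNA replication genes, 1 was higher and 0 lower, and the list's median log2 fold change was 0.15. Of 22 mitosis genes, 3 were higher and 0 lower (13.6% higher, median 0.46), and 15 of 22 lay above 0. Cenpf, a kinetochore protein, measured 1.88, 2.33, 1.61 and 0.931 CPM in R3, R4, R7 and R11, and 0.664, 1.23, 0.730 and 0.711 CPM in R5, R10, R16 and R9. Only R10 and R11 made the groups overlap, and the log2 fold change was 1.01 (SE 0.33, edgeR adjusted p = 0.341). The kinesins Cenpe (0.54, SE 0.24, adjusted p = 0.516) and Kif11 (0.54, SE 0.25, adjusted p = 0.523) were the others. Summed over the mitosis list, levels were 19.4 to 26.4 CPM in the DHEA group and 15.2 to 22.6 CPM in the sesame oil group. For 18 mitosis genes the RefSeq promoters numbered 19, of which 84.2% held CCAAT, 36.8% TTTGAA and 31.6% both, beside 33.8%, 16% and 5.55% of all promoters.

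Of 12 intermediate progenitor genes, 0 were higher and 0 lower, and the smallest p were those of Mfng (log2 fold change 0.37, edgeR adjusted p = 0.612) and Insm1 (0.21, adjusted p = 0.663). Of 20 neuroblast genes, 2 were higher and 2 lower (median -0.04). Dpysl5, a collapsin response mediator, had a log2 fold change of -0.26 (SE 0.09, edgeR adjusted p = 0.341) and Tmsb10, an actin-binding thymosin, -0.24 (SE 0.09, adjusted p = 0.416), while St8sia4, a polysialyltransferase, had 0.27 (SE 0.09, adjusted p = 0.343) and the RNA-binding protein gene Elavl4 0.21 (SE 0.09, adjusted p = 0.487). Of 15 granule neuron genes, 1 was higher and 2 were lower (median 0.00). The channel gene Trpc6 had a log2 fold change of -0.36 (SE 0.09, edgeR adjusted p = 0.241), Plk5 -0.44 (SE 0.14, adjusted p = 0.314) and Tdo2 0.44 (SE 0.15, adjusted p = 0.381). Of 26 niche signals, 3 were higher and 2 lower (median 0.05). The stem cell mitogen Fgf2 had a log2 fold change of 0.39 (SE 0.12, edgeR adjusted p = 0.293), against -0.41 for the ligand gene Wnt7a (SE 0.13, adjusted p = 0.296) and -0.30 for the angiogenic factor Vegfa (SE 0.10, adjusted p = 0.333).

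Markers of some other hippocampal cells were also higher at an unadjusted p under 0.05, as the stem cell genes were. Of 10 microglia genes, 4 were higher (among them C1qa, P2ry12 and C1qb, log2 fold changes 0.28 to 0.37), with summed levels of 420, 494, 394 and 374 CPM in R3, R4, R7 and R11 and 338, 367, 355 and 396 CPM in R5, R10, R16 and R9. Of 10 oligodendrocyte precursor genes, 3 were higher (Pdgfra 0.25, Lhfpl3 0.32 and Olig1 0.20), with sums of 390, 421, 390 and 359 CPM against 334, 352, 331 and 367 CPM in the same order. Of 10 endothelial genes, 3 were higher (Slco1a4 0.38, Ly6c1 0.43 and Pecam1 0.30), with sums of 354, 375, 313 and 355 CPM against 317, 307, 309 and 326 CPM. Over the whole list, the median log2 fold change was 0.19 for microglia, 0.14 for precursors and only 0.04 for endothelium. Values lay above 0 for 10 of 10 microglia genes, 10 of 10 precursor genes and 7 of 10 endothelial genes. Among the others, Flt1 had -0.06 and Cdh5 -0.02. The sums of microglia genes overlapped between the groups only through R9, and those of endothelial genes only through R7. Those of precursor genes overlapped through R9 (367 CPM) and the DHEA-labelled R11 (359 CPM), and leaving out either would separate them. The stem cell list summed to 1063, 1189, 1091 and 1006 CPM against 955, 966, 961 and 1063 CPM, and R9 was again the only oil-labelled library within the DHEA range. Slc1a3, the glial glutamate transporter, alone averaged 714 and 644 CPM. The most abundant genes were Olig1 (39.4 FPKM) for the precursors, Cldn5 (19.5 FPKM) for endothelium and Slc1a3 (100 FPKM) for stem cells, and no gene of these 4 lists was at 0 in every library. Their part in the values of the 9 genes was not tested.

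The lists of cells that share markers with the 9 genes (Cajal-Retzius cells, mossy cells, interneurons and subventricular neuroblasts) had few genes past the threshold. Of 8 Cajal-Retzius cell genes, 0 were higher or lower (median 0.27, summed levels 125 to 162 CPM and 114 to 152 CPM, most abundant gene Reln at 5.94 FPKM). The smallest p were those of Ebf3 (log2 fold change 0.69, edgeR adjusted p = 0.591) and Lhx5 (0.83, adjusted p = 0.666). Ebf3 measured 1.72, 3.39, 4.55 and 3.61 CPM in R3, R4, R7 and R11, and 1.18, 1.63, 0.984 and 4.45 CPM in R5, R10, R16 and R9, and was lowest in R5 and R16, as Eomes was. Other genes of the list ran differently. Trp73, named after its values were seen, was highest in R5 (6.07 CPM) and lowest in R9 (2.58 CPM). Reln, the list's most abundant gene, was highest in R16 (83.5 CPM), with 79.3 CPM in R5 and 65.9 CPM in R9. Reln alone averaged 69.6 CPM in the DHEA group and 73.9 CPM in the sesame oil group, a large part of the list's sums. Of 8 mossy cell genes 1 was higher (Calcrl, log2 fold change 0.37), of 10 interneuron genes 0 were higher or lower (smallest p for Gad1, -0.07, and Gad2, 0.08), and of 10 subventricular neuroblast genes 1 was higher (Tshz1, 0.19). The most abundant genes of these lists were Sv2b (71.5 FPKM), Sst (143 FPKM) and Etv1 (10.8 FPKM). Sp8, a transcription factor gene of the subventricular list named after its values were seen, measured 1.56, 3.87, 3.08 and 1.12 CPM in R3, R4, R7 and R11, and 1.48, 1.12, 0.825 and 3.02 CPM in R5, R10, R16 and R9. It was lowest in R16 and highest in R4, R7 and R9 (log2 fold change 0.58, SE 0.40, edgeR adjusted p = 0.650). The subventricular list had a median log2 fold change of 0.06. Its sums were 247, 215, 219 and 208 CPM in R3, R4, R7 and R11 and 244, 213, 195 and 211 CPM in R5, R10, R16 and R9. Etv1, also on the pyramidal neuron list, alone averaged 148 CPM in the DHEA group and 147 CPM in the sesame oil group. The sums are mostly Etv1, so they cannot show whether the other genes of the list followed Sp8. The part of these cells in the values of the 9 genes was not tested. Of 10 pyramidal neuron genes 2 were higher (Bok 0.24 and Spink8 0.32, most abundant gene Neurod6), and of 10 thalamus genes 1 was higher (Rora, 0.23) and 1 lower (Ntng1, -0.20, most abundant gene Slc17a6 at 7.14 FPKM). Zic1, a transcription factor gene of the thalamus list named after its values were seen, measured 26.9, 59.1, 51.7 and 36.6 CPM in R3, R4, R7 and R11, and 27.6, 26.9, 20.4 and 53.7 CPM in R5, R10, R16 and R9. It too was lowest in R16 and highest in R4, R7 and R9 (log2 fold change 0.44, SE 0.24, edgeR adjusted p = 0.586). The thalamus list summed to 223, 281, 271 and 270 CPM against 242, 212, 219 and 263 CPM in the same order, and its part in the values of the 9 genes was not tested. Of 10 anterior pituitary genes 3 were lower (Prl, Gh and Pomc, the last the most abundant at 0.828 FPKM), beside 4.49% of all genes. Gh and Prl did not overlap between the groups (edgeR adjusted p = 0.0818 and 0.0647), as 5.04% of all genes did not. Both reached 0 CPM in the DHEA group. The list summed to 1.88 to 3.39 CPM in the DHEA group. It summed to 3.65, 30.3, 3.71 and 6.94 CPM in R5, R10, R16 and R9, so that R10 alone set the upper end.

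**Figure D4:**
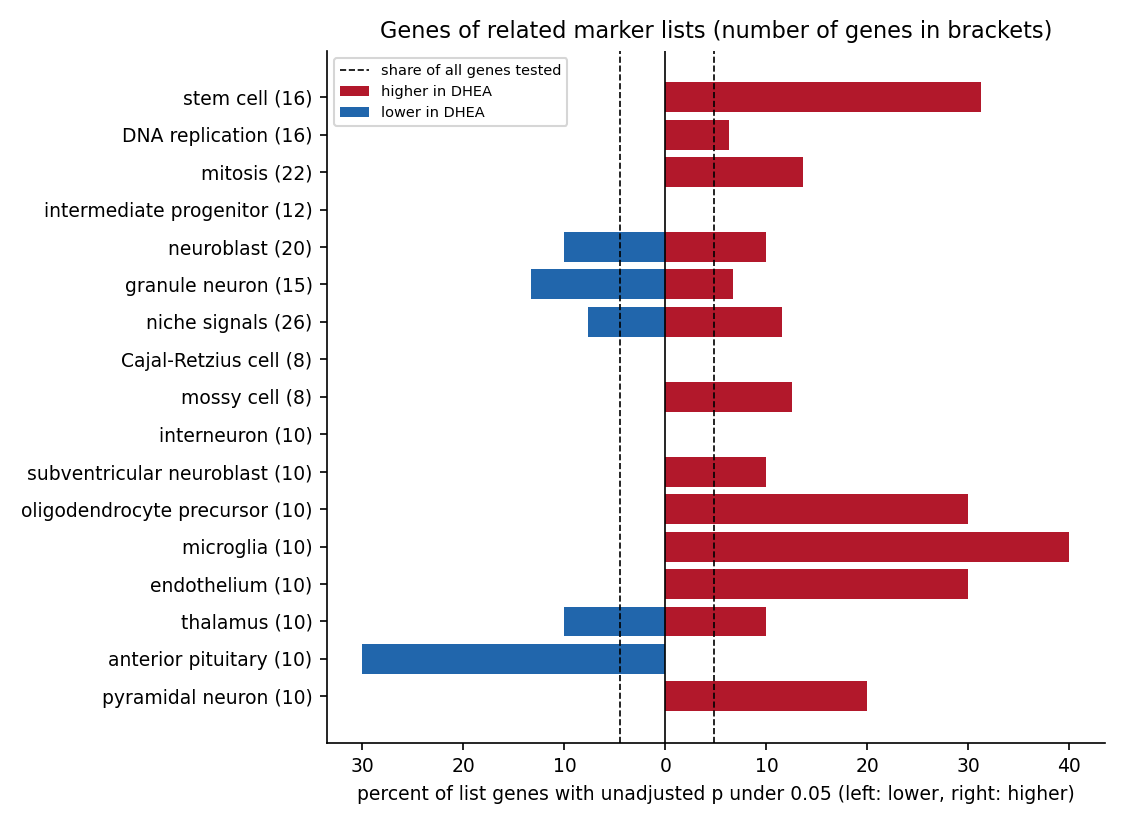
Percent of the genes of each list with an unadjusted edgeR p under 0.05, to the right where higher and to the left where lower in the libraries labelled DHEA. Dashed lines mark 4.82% and 4.49%, the shares over all genes tested, and the number of genes is in brackets. The microglia, stem cell, oligodendrocyte precursor and endothelium lists reach 30% or more on the right.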

How the data were processed

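The authors deposited raw counts per gene, not normalized, and FPKM calculated from them. Libraries were made from polyadenylated RNA, reads were filtered, aligned with HISAT2 and counted with HTSeq, and the submitters' notes name GRCm39. Versions are not given in the sources used here. TMM normalization and quasi-likelihood tests were run in edgeR 4.0.16 (R 4.3.3) for the 27612 genes that had a count in any library (prior count 0.125), with Benjamini-Hochberg adjustment over all of them. Exact permutation tests were two-sided, over 70 allocations for CPM (smallest p 0.0286) and 40320 pairings for correlations. DESeq2 1.42.0 and limma 3.58.1 were alternatives, and scripts were tested on simulated counts. No 2 libraries of a group were as alike as sampling noise. Genes named from each list were at most 4 with the smallest p under 0.05, otherwise the 2 smallest. Some list genes are not reported here by name. The 9 genes and the lists were chosen with earlier results of these data known.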

Additional observations from a re-analysis of the deposited data

How the results depend on the processing

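Under 10 other settings with all libraries (DESeq2, RLE and upper quartile normalization, at least 10 counts, robust moderation, filterByExpr, limma-trend with a pseudocount of 1 or of 0.1 FPKM, a prior count of 1, and thinning to the smallest total), none of the 90 log2 fold changes of the 9 genes changed sign or reached p under 0.05. Sizes moved on the FPKM scales. A pseudocount of 1 gave 0.05 for Mki67, 0.03 for Top2a, 0.24 for Eomes and 0.16 for Igfbpl1. It also gave 0.04 for Sox11, 0.06 for Dcx, 0.01 for Neurod1 and 0.03 for Calb2. A pseudocount of 0.1 gave 0.22 for Mki67, 0.07 for Top2a, 0.86 for Eomes and 0.06 for Sox11. With the same pseudocount, Dcx had 0.07, Neurod1 0.02 and Calb2 0.03. The number of genes with an adjusted p under 0.05 was 153 with DESeq2 and 4 with robust moderation, against 0, and from 0 to 93 with 1 library left out (93 without R7, 12 without R11). Of 72 values with a library left out, 5 changed sign. The lowest and highest were -0.06 and 0.28 for Top2a, -0.08 and 0.22 for Dcx, -0.02 and 0.11 for Neurod1, -0.02 and 0.12 for Calb2, 0.21 and 1.47 for Eomes, 0.11 and 0.48 for Mki67, 0.13 and 0.59 for Igfbpl1, 0.03 and 0.14 for Sox11, and 0.10 and 0.20 for Sox4. The number of the 9 genes with p under 0.05 ranged from 0 to 3, with 3 only without R9. The causes were not tested. No correlated pair passed adjustment on the log2(FPKM + 1) scale either. No paired analysis was possible. The methods name littermates as controls for the behavioural tests, but the labels tie no library to a litter. Counting error gives Mki67, Top2a and Eomes a coefficient of variation of 11.7% to 11.9%.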
